A study of Homo sapiens with 6 samples.

Results

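The comparison described here set 1 RNA library of BicR prostate cancer cells treated with bicalutamide against 1 library of the same line given ethanol, 2 of the 6 libraries in the series. BicR is named in the labels only as a prostate cancer line, and the labels do not say how it was derived. Cells were grown in RPMI 1640 with 10% serum and then moved to phenol red-free medium with 2.5% charcoal/dextran-treated serum, from which most steroid hormones are removed, where they stayed 3 days. Ethanol vehicle or bicalutamide at 1 µM was then given for 24 h. A BicR library treated with dihydrotestosterone (DHT, an androgen) at 10 nM and the 3 matching libraries of LNCaP, an established androgen-responsive line, were used for reference. The SOLiD 3 Plus System was used to sequence total RNA extracted by ISOGEN. Genes entered when their raw counts averaged at least 20 over the 6 libraries, which kept 13885 of 21512 listed genes. Next to this limit, CCDC67 (mean 20 counts, 17 with ethanol and 21 with bicalutamide) was inside, and ARAP3 (mean 19.8 counts, 11 and 7) was outside.

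Androgens such as testosterone and DHT drive genes of prostate secretion, among them the kallikreins, through DNA elements near those genes. Bicalutamide is an antiandrogen that competes with these hormones in the cell. In medium low in hormones the ethanol cells have little androgen to displace, so the comparison asks what the drug does when hormone is largely absent. Genes or classes that differ between these libraries are therefore described as small shifts, beside the wider differences in LNCaP.

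With 1 library per treatment there was no replicate check and no test, and nothing in the labels says whether a library pooled or repeated cultures. Levels are given as CPM, with library sizes scaled by TMM. A difference is the log2(CPM + 1) with bicalutamide minus that with ethanol, and the added 1 shrinks the difference of low genes. Ratios are of scaled counts, bicalutamide over ethanol, and their exact 95% intervals cover counting error only and say nothing of how cultures vary. Total counts were 47185123 with bicalutamide and 49460929 with ethanol, and ran from 42162723 to 55917016 over the series. The 8 luminal markers (among them KLK3, FOLH1, HOXB13 and KRT18) were all above the count limit, and summed to 3624 CPM with ethanol and 3754 CPM with bicalutamide. The 5 basal markers summed to 0.154 and 0.224 CPM, with KRT15 and DSG3 at 0, and the 6 immune markers to 0.173 and 0.0814 CPM, with PTPRC, CD3E and MS4A1 at 0. The 4 endothelial markers summed to 3.03 and 3.09 CPM, nearly all from VWF, with CDH5 at 0. The 6 mesenchymal markers reached 27.3 and 29 CPM, nearly all from COL1A1, while COL1A2 was at 0. The 5 neuroendocrine markers reached 2.03 and 2.32 CPM, nearly all from SYP, with CHGB at 0 in both libraries.

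The promoters of KLK3 and KLK2, the genes of prostate-specific antigen and its neighbouring kallikrein, are shown because they carry a known androgen response element and because both genes gave large counts in every library. Each sequence is the 250 bases before the gene's start, from RefSeq on GRCh38.p14: chr19:50854665-50854914 for KLK3 and chr19:50873189-50873438 for KLK2, both on the plus strand. Capitals mark GAACA followed after any 3 bases by AGTGCT, searched on both strands.
KLK3: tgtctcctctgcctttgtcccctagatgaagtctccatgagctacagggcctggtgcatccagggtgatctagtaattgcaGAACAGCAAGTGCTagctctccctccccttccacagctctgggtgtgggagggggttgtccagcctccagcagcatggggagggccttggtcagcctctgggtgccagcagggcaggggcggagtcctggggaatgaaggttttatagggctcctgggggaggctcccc
KLK2: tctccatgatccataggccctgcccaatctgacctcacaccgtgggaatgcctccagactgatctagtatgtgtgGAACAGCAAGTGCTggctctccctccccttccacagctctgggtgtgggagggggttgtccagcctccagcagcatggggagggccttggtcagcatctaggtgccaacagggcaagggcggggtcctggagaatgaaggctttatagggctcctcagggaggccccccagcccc
The capitals began 169 bases upstream of the start in KLK3 and 175 bases upstream in KLK2. With the base before the capitals included, the 15-base elements were identical at 14 positions. Counted from 1 at the 5′ end, they differed by A1G, from KLK3 to KLK2, so that the capitals were identical. The motif searched for, without that first base, was found in 12 of 27305 promoters of this length (0.0439%). Of the 73 tested androgen-induced genes, 51 were matched to a promoter, and these 2 were the only ones of the 51 with the motif. Outside its 3 free bases the motif has the letters of these 2 elements, so their match was fixed in advance. Other forms of androgen response element were not searched, so the other promoters cannot be said to lack one.

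The BicR libraries lay close together. The median difference over the 13885 genes was 0.01, the SD was 0.14, and the percentiles at 5 and 95 were -0.22 and 0.22. In LNCaP the SD of the same difference was 0.43. In BicR 72.5% of genes were within 1.1-fold and 93.9% within 1.2-fold. With bicalutamide 406 genes (2.92%) were higher by 1.2-fold or more, and 447 (3.22%) were lower by that much. At 1.5-fold there were 7 genes higher (0.0504%) and 15 lower (0.108%), and at 2-fold 0 in either direction. By any amount, 52.6% of genes were higher and 47.4% lower. In LNCaP the 1.2-fold counts were 3629 higher (26.1%) and 3474 lower (25%). On the authors' RPKM scale the split tilted down, with 138 genes higher and 272 lower, so that 33.7% of the genes past 1.2-fold were higher against 47.6% on the main scale.

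The spread was above counting error at every level of expression, and most so among high genes. In the eighth of genes with the highest counts in the pair the SD of the differences was 0.103, while the median counting error was 0.0191 on the same scale. In the lowest eighth, with means of up to 99.5 counts, the SD was 0.189 and the median counting error 0.14, and 15.3% of the genes passed 1.2-fold. The counting interval left out 1 for 2850 genes above and 2282 genes below. Past 1.2-fold it left out 1 for 374 of the 406 higher genes and 421 of the 447 lower genes. These are 2.69% and 3.03% of all tested genes. What separates these libraries beyond counting, culture or drug, cannot be told apart with 1 library each.

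**Figure D1:**
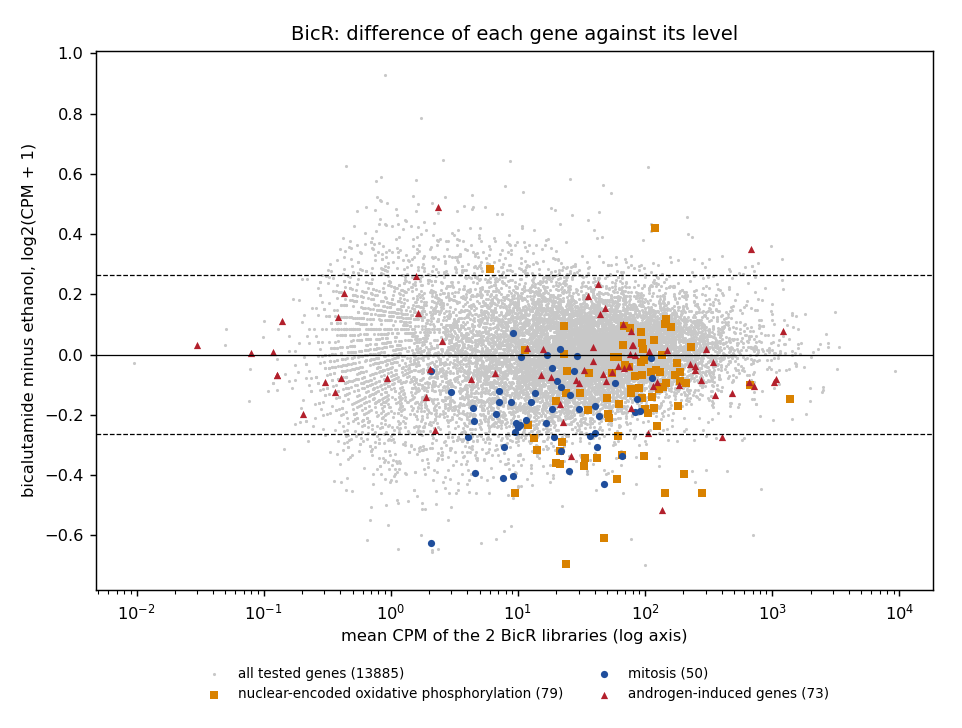
Each point is a gene, with the mean CPM of the 2 BicR libraries on a log axis against the difference between bicalutamide and ethanol on the log2(CPM + 1) scale. Dashed lines mark 1.2-fold, beyond which lie 406 genes above and 447 below, and most mitosis (circles) and oxidative phosphorylation genes (squares) sit below 0.

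The genes that androgens are known to induce gave counts that were nearly the same with and without the drug. KLK3 had 34989 counts with ethanol and 30963 with bicalutamide, a ratio of 0.938 (0.924 to 0.952). KLK2 had 15526 and 14851, a ratio of 1.01 (0.991 to 1.04), and KLK4 had 3992 and 3772, a ratio of 1.00 (0.958 to 1.05). Of these 3 kallikreins KLK3 alone had an interval below 1, and the others spanned it. The DHT library of BicR, which shares the ethanol library as its reference, had KLK3 at 2600.5 CPM against 672 with ethanol and 629.9 with bicalutamide. KLK2 stood at 3046 CPM with DHT, 298 with ethanol and 302 with bicalutamide.

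Other classical targets behaved in the same narrow range, with a few exceptions. TMPRSS2, a membrane serine protease whose promoter drives the ETS fusions of prostate cancer, had 5954 counts with ethanol and 4677 with bicalutamide, a ratio of 0.832 (0.801 to 0.865). Its difference, -0.26, lay just inside the 1.2-fold limit, and its level with DHT was 1032 CPM against 114 with ethanol. FKBP5, an immunophilin, had 2942 and 2665 counts, a ratio of 0.960 (0.911 to 1.01), beside 712 CPM with DHT and 56.5 CPM with ethanol. SLC45A3, a membrane transporter, had 11959 and 11039 counts and a ratio of 0.978 (0.953 to 1.00). PMEPA1, an inhibitor of TGF-beta signalling, had 2661 and 2359 counts and a ratio of 0.939 (0.888 to 0.993). TRPM8, a cation channel, had only 131 and 96 counts, and its ratio of 0.777 (0.591 to 1.02) could not be told from 1 at this depth. STEAP4 and HPGD, both strongly higher with DHT in BicR (differences of 6.88 and 1.94), had 5 to 9 counts in these 2 libraries and cannot be read. NDRG1, a stress-responsive gene, had a ratio of 1.01 (0.980 to 1.04), and its difference changed sign on the RPKM scale. That of KLK4 changed sign under 4 of the other settings, so neither has a direction.

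Over the whole list of androgen-induced genes, 73 of 74 listed were tested. The median difference was -0.05 beside 0.01 for all genes, with 46 lower and 27 higher (all genes: 47.4% lower). Past 1.2-fold were 3 members that were lower (4.11%, all genes 3.22%) and 2 that were higher (2.74%, all genes 2.92%), shares near those of all genes. PPAP2A, a lipid phosphatase, had 8342 counts with ethanol and 5485 with bicalutamide, a ratio of 0.697 (0.673 to 0.721). HERC3, a ubiquitin ligase, had 1518 and 1124, and ADAMTS1, a secreted metalloprotease, had 22981 and 17914, a ratio of 0.826 (0.810 to 0.842). In the other direction KRT8, a luminal keratin, had 31421 and 37860 counts, a ratio of 1.28 (1.26 to 1.30), and INPP4B, a phosphoinositide phosphatase, had 93 and 143, a ratio of 1.63 (1.25 to 2.14). The keratin that pairs with KRT8, KRT18, stood at 17997 and 16694 counts, a ratio of 0.983 (0.962 to 1.00). In LNCaP the PPAP2A and KRT8 differences had the opposite sign (0.39 and -0.68), while ADAMTS1 was also lower (-0.41).

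**Figure D2:**
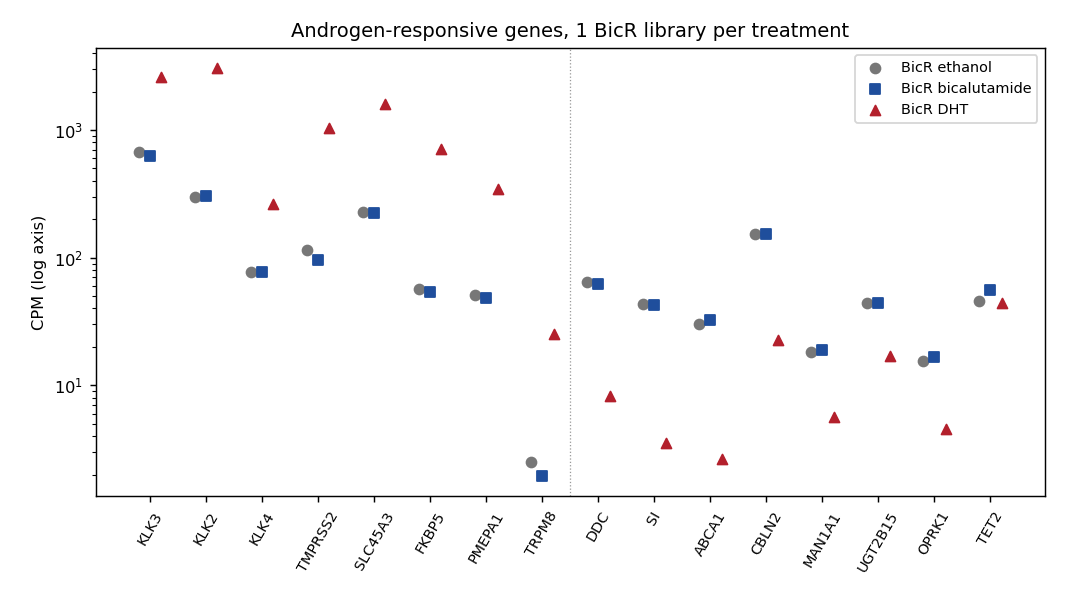
CPM on a log axis of genes listed as androgen-responsive in the 3 BicR libraries, 1 library per treatment, with genes listed as induced left of the dotted line and genes listed as repressed right of it. TET2, on the repressed side, stands at 44.4 CPM with DHT against 45.5 with ethanol. Ethanol and bicalutamide points nearly coincide, while the DHT point of KLK2 stands at 3046 CPM against 298 and 302.

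Genes listed as repressed by androgens also stayed near their ethanol level. Of 44 listed, 38 were tested, and the median difference was -0.05, with 24 lower and 14 higher, so this list leaned the same way as the induced one. With DHT against ethanol the list had a median of -1.06 in BicR but -0.02 in LNCaP. TET2, a listed gene, differed with DHT by -0.03 in BicR and by -0.52 in LNCaP. SI (sucrase-isomaltase), 2260 counts with ethanol and 2109 with bicalutamide, gave a ratio of 0.989 (0.932 to 1.05), and DDC, an aromatic amino acid decarboxylase, 3346 and 3036 counts, gave 0.962 (0.915 to 1.01). CBLN2, a synaptic organiser, had 8028 and 7520 counts and a ratio of 0.993 (0.962 to 1.02). With DHT the same 3 genes stood at 3.53, 8.32 and 22.7 CPM, against 43.4, 64.2 and 154 CPM with ethanol. UGT2B15, which inactivates androgens, had 2313 and 2175 counts and a ratio of 0.997 (0.939 to 1.06). Reads of the near-identical UGT2B genes may have been split between them, and UGT2B17 (45 and 37 counts) and UGT2B28 (25 and 20 counts) were too low to compare. MAN1A1 had a ratio of 1.03 (0.937 to 1.12), OPRK1 of 1.08 (0.980 to 1.19) and ABCA1, the cholesterol exporter, of 1.08 (1.00 to 1.15). Past 1.2-fold were TET2, a DNA demethylation enzyme (2368 and 2754 counts, ratio 1.23, 1.17 to 1.30), the glucose transporter SLC5A1 (338 and 401 counts, 1.26, 1.09 to 1.46) and, lower, PEG10 (386 and 263 counts, 0.722, 0.615 to 0.847). Those higher were 5.26% of the list (all genes 2.92%), and PEG10 alone was 2.63% (all genes 3.22% lower). TET2 was also higher and PEG10 also lower with bicalutamide in LNCaP (differences of 0.75 and -0.86), where SLC5A1 was lower (-1.56).

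Genes that differed with DHT were also chosen in the LNCaP libraries, which are not in the compared pair, whether or not they are known androgen targets. The 194 genes at least 2-fold higher with DHT than with ethanol in LNCaP had a median difference of -0.12 in BicR, with 159 of 194 lower (82.0%, all genes 47.4%). Past 1.2-fold, 31 of these were lower (all genes 3.22%) and 3 higher (all genes 2.92%). The 54 that belong to the mitosis, replication or repair lists had a median of -0.18 and 52 were lower. The other 140 had a median of -0.10, with 107 lower and 33 higher, and the 27 that are in the androgen-induced list had -0.07, with 20 lower. The 165 genes at least 2-fold lower with DHT in LNCaP leaned the other way, with a median of 0.12, 123 higher and 42 lower, and past 1.2-fold 27 were higher and 4 lower, beside the same all-gene shares. Without the 23 members of the unfolded protein and amino acid stress lists the median was 0.13 over 142 genes, while those 23 had 0.04. With LNCaP bicalutamide in place of LNCaP ethanol as the reference for choosing genes, the medians moved to -0.047 (219 genes, 135 lower) and 0.045 (124 genes, 81 higher).

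Genes of androgen uptake and metabolism held 2 members past 1.2-fold, both higher. These were SRD5A3, a polyprenol and steroid reductase (4204 and 4832 counts, ratio 1.22, 1.17 to 1.27), and SLCO2B1, an uptake transporter with only 30 and 49 counts (1.73, 1.08 to 2.82). None of the 34 receptor coregulators and chaperones passed 1.2-fold; their median was 0.02, and NCOA1, a coactivator, was the highest at 0.22. Glucocorticoid receptor targets, which overlap with androgen targets, had a median of -0.02 over 17 genes, with CDKN1C, a cell cycle inhibitor, past the limit (347 and 261 counts). The luminal prostate list had a median of -0.03 over 22 genes, with KRT8 alone past 1.2-fold.

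Among lists with at least 10 tested members, that of mitosis had the median farthest from 0 on this scale. All 50 genes of the list were tested, 48 were lower with bicalutamide and 2 were higher, with a median of -0.18 beside 0.01 for all genes. At least 1.2-fold lower were 13 of 50 (all genes 3.22%), and 0 were at least 1.2-fold higher. Summed over the list, counts were 74607 with ethanol and 62167 with bicalutamide, a ratio of 0.883 (0.874 to 0.893). The largest differences were in SPC25, a subunit of the NDC80 kinetochore complex, with 141 and 69 counts (ratio 0.519, 0.383 to 0.696), and CENPF, a kinetochore-associated protein, with 2872 and 2000 counts (0.738, 0.697 to 0.782). ASPM, a spindle pole protein, had 550 and 380 counts (0.732, 0.641 to 0.836), TOP2A, the topoisomerase of dividing cells, had 3802 and 2832 (0.789, 0.752 to 0.829), and PLK1, a mitotic kinase, had 2396 and 1817 (0.804, 0.756 to 0.855). MKI67, the proliferation marker, had 5051 and 4183 counts (0.878, 0.842 to 0.915). At the other end CENPA, the centromeric histone, had 460 and 459 counts (1.06, 0.927 to 1.21), CDCA3 had 1117 and 1068 (1.01, 0.931 to 1.1), and CCNB1, cyclin B1, had 5819 and 5453 (0.993, 0.957 to 1.03). The 8 kinesins were all lower, with a median of -0.14.

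With DHT the BicR mitosis list had a median of 0.06 against the same ethanol library, with genes on both sides: SPC25 stood at 2.24 CPM with DHT, below its 2.71 CPM with ethanol. CENPF stood at 55.1 CPM with ethanol, 54.8 with DHT and 40.7 with bicalutamide, and TOP2A at 73.0, 74.5 and 57.6 CPM in the same order. In LNCaP all 50 were higher with bicalutamide than with ethanol, with a median of 1.5. There CENPF stood at 11.6 CPM with ethanol and 51.2 with bicalutamide, and TOP2A at 8.90 and 36.3 CPM, so that the LNCaP ethanol library was the low one. For both genes the BicR levels stood above the LNCaP ethanol level with either treatment.

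The promoters of SPC25, ASPM and TOP2A are shown because genes of mitosis often carry the cell cycle homology element (TTTGAA) beside CCAAT boxes. They are the 250 bases before the start, from RefSeq on GRCh38.p14, each on the minus strand: chr2:168890431-168890680, chr1:197146670-197146919 and chr17:40417897-40418146. Capitals mark TTTGAA and CCAAT on either strand, so that TTCAAA and ATTGG are the reverse complements.
SPC25: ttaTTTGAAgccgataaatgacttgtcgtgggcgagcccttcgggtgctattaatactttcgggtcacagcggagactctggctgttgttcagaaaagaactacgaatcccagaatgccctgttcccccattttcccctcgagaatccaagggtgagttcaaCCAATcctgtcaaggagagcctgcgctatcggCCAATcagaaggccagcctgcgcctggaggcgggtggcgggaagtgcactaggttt
ASPM: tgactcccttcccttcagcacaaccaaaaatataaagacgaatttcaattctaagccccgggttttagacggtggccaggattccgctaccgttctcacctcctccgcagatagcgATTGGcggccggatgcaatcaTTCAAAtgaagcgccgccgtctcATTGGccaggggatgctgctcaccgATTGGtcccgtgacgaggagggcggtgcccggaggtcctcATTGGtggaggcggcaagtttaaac
TOP2A: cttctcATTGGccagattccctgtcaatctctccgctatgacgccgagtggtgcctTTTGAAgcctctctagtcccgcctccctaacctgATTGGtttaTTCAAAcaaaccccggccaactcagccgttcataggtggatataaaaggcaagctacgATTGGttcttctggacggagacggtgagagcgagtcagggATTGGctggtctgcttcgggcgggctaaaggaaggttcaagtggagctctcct
TTTGAA was in 22 of the 41 mitosis promoters that could be matched (53.7%) and in 13.6% of all 27305 promoters. CCAAT was in 32 of 41 (78%) and in 33.0% of all. Both were in 19 of 41 (46.3%) and in 4.85% of all. The median difference was -0.19 for the genes with both and -0.19 for the other genes, which is the same value. A match is a run of letters and not a bound site.

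DNA replication genes leaned the same way. Of 46 tested, 36 were lower and 10 higher, with a median of -0.12, and past 1.2-fold 9 were lower (19.6%, all genes 3.22%) and 0 higher (all genes 2.92%). RRM2, a subunit of ribonucleotide reductase, had 1119 and 783 counts (0.742, 0.676 to 0.813), and ORC6L, of the origin recognition complex, had 596 and 430 (0.765, 0.674 to 0.867). All 6 subunits of the MCM2 to MCM7 helicase were lower, with a median of -0.21 and a summed ratio of 0.872 (0.852 to 0.891). RFC1, of the clamp loader, was the highest (3382 and 3550 counts), at 0.15. With DHT the replication list had a median of -0.20 against the shared ethanol library, and in LNCaP it had 0.30 with bicalutamide. DNA repair genes had a median of -0.08, with 28 of 38 lower, and BRCA2 was the lowest at 426 and 304 counts (0.756, 0.651 to 0.878). The 30 regulators of the G1 phase were near 0 at -0.01, with E2F2 (252 and 182 counts) and E2F8 (215 and 158 counts) lowest. CDKN1B and RBL2, which restrain the cycle, were highest, with differences of 0.20 and 0.23.

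Genes of respiration were lower as a group. Of 79 nuclear-encoded oxidative phosphorylation genes, 63 were lower and 16 higher, with a median of -0.11. Past 1.2-fold 19 were lower (24.1%, all genes 3.22%) and 2 higher (2.53%, all genes 2.92%). The 38 genes with NDUF names were taken as complex I, the NADH dehydrogenase. Of these, 31 were lower and 15 were at least 1.2-fold lower (all genes 3.22%). NDUFS7, an iron-sulphur subunit, had 1556 and 887 counts, a ratio of 0.604 (0.556 to 0.656), and NDUFB1, an accessory subunit, had 2985 and 1831, a ratio of 0.650 (0.613 to 0.689). Summed counts of complex I gave a ratio of 0.909 (0.902 to 0.916), of complex III 0.935 (0.924 to 0.946), of complex IV 0.934 (0.923 to 0.946) and of the ATP synthase 0.922 (0.916 to 0.928). NDUFB11 ran against the lean of the NDUF genes, with 5283 and 6688 counts (1.34, 1.29 to 1.39), as did NDUFA4L2 (279 and 331 counts). NDUFA4L2 was counted with complex I by its name, although it is related to the complex IV subunit NDUFA4. In LNCaP the list was lower too, with a median of -0.30 and 58 of 79 lower, and NDUFS7 (-0.41) and NDUFB1 (-0.39) were again low. NDUFB11 was instead lower there (-1.25). With DHT in BicR the median was -0.11 against the same ethanol library, and NDUFS7 stood at 29.9 CPM with ethanol, 18 with bicalutamide and 21.9 with DHT.

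These genes are short, and length moved with the difference. By sixths of relative gene length the median went from -0.03 in the shortest genes to 0.03 in the longest in BicR, and from -0.23 to 0.24 in LNCaP. Genes as short as the oxidative phosphorylation list had a median of -0.03 in BicR, so the list lay below them. With the median of its sixth of length taken from each gene, an adjustment added after seeing the data, the list's median was -0.09. GC content showed almost no trend in BicR, with medians between -0.01 and 0.02 by sixth, against 0.33 to -0.24 in LNCaP, over the 11988 genes (86.3%) with a transcript to measure.

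Ribosomal protein and RNA-processing genes were also a little lower. Of 84 cytosolic ribosomal protein genes, 61 were lower and 23 higher, with a median of -0.09. These genes are also short, and genes of the same length had a median of -0.03. Past 1.2-fold 11 were lower (13.1%, all genes 3.22%) and 6 higher (7.14%, all genes 2.92%). RPL10A, of the large subunit, had 49316 and 34136 counts (0.734, 0.723 to 0.744) and RPL7A had 26096 and 18819 (0.764, 0.750 to 0.779). RPS13, of the small subunit, had 9674 and 12059 (1.32, 1.29 to 1.36) and RPL9 had 44944 and 54433 (1.28, 1.27 to 1.30). Subunits of the same ribosome thus lay on both sides of 1 by more than counting error. Summed counts gave a ratio of 0.962 (0.960 to 0.965) for large-subunit genes and 1.00 (1.00 to 1.01) for small-subunit genes, so that the sum of the latter did not share the lean of their median, -0.05. Ribosomal protein genes have many processed pseudogenes, and how reads were shared among them is not given in the sources used here. Mitochondrial ribosomal protein genes had a median of -0.07, with 58 of 76 lower, beside -0.03 for genes of the same length. Lower past 1.2-fold were 3 of them (3.95%, all genes 3.22%), MRPL53 (861 and 637 counts), MRPS36 (232 and 173 counts) and MRPS28 (-0.26). Spliceosome and RNA-binding genes had a median of -0.07, with 48 of 61 lower, and the core snRNP proteins SNRPE (643 and 436 counts, 0.719, 0.635 to 0.813) and SNRPG (1123 and 791 counts, 0.746, 0.681 to 0.818) were lowest. Proteasome subunits (median -0.04, 42 genes) and translation factors (0.01, 65 genes) were near all genes, the latter with a sign that turned with the scaling.

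Lipid synthesis genes were lower by small amounts. Of 25 genes of cholesterol synthesis and uptake, 22 were lower and 3 higher, with a median of -0.09. Among those lower past 1.2-fold were INSIG1, the sterol carrier STARD4 (-0.29) and the sterol oxidase SC4MOL (-0.27). INSIG1, which retains the sterol sensor in the endoplasmic reticulum, had 5062 and 3532 counts (0.739, 0.708 to 0.772). With DHT it stood higher than with ethanol in BicR, at 162 CPM against 97.2 CPM, and the list had a median of 0.41 against the same ethanol library. HSD17B7, which reduces a sterol intermediate, was the highest with bicalutamide (752 and 770 counts, 1.09, 0.980 to 1.2). Fatty acid synthesis genes had a median of -0.06, with 22 of 27 lower, and AGPAT9, a glycerol phosphate acyltransferase, alone past 1.2-fold (227 and 164 counts).

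Genes of the amino acid stress response and p53 targets leaned up. ATF4 is a transcription factor of amino acid shortage, and 32 of 36 genes of its response were higher and 4 lower, with a median of 0.07 and a summed ratio of 1.07. At least 1.2-fold higher were ATF5, a related factor (3302 and 3868 counts, 1.24, 1.18 to 1.30), SLC1A5, a glutamine transporter (13749 and 15892 counts, 1.22, 1.2 to 1.25), and PCK2, mitochondrial phosphoenolpyruvate carboxykinase (34012 and 38921 counts, 1.21, 1.2 to 1.23). These 3 genes were 8.33% of the list (all genes 2.92%). They were lower with bicalutamide in LNCaP (-0.81, -0.62 and -0.84), and higher with DHT in BicR against the same ethanol library (0.14, 0.86 and 0.68). Of 28 p53 targets 25 were higher and 3 lower, with a median of 0.06 and 0 past 1.2-fold. BTG2, an antiproliferative factor (5257 and 5821 counts, 1.17, 1.13 to 1.22), and CDKN1A, the inhibitor p21 (10406 and 11247 counts, 1.15, 1.12 to 1.18), were highest, while MDM2, the ligase of p53, had 8183 and 7689 counts (0.996, 0.965 to 1.03).

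The unfolded protein response, the cell's answer to misfolded proteins in the endoplasmic reticulum, was nearly flat in BicR. Of 49 genes 33 were higher and 16 lower, with a median of 0.04 against -0.88 in LNCaP, where all 49 were lower with bicalutamide. HSPA5, the main chaperone of the endoplasmic reticulum, had 64832 and 62626 counts (1.02, 1.01 to 1.04), or 1245 and 1274 CPM, beside 8595 and 1435 CPM in LNCaP. HYOU1, another such chaperone, had 32566 and 37699 counts (1.23, 1.21 to 1.25) and NUCB2, a calcium-binding protein of the secretory pathway, had 5001 and 6289 (1.33, 1.28 to 1.38). SEC61G, of the translocation channel, was lowest at 1802 and 1340 counts (0.788, 0.734 to 0.846). Cytosolic heat shock genes had a median of -0.02 over 25 genes, with HSPA6, the inducible form, at 65 and 29 counts (0.473, 0.294 to 0.743), which also has a near-identical pseudogene. In the NRF2 and metal list (27 genes, median -0.04), HMOX1, heme oxygenase (2470 and 1695 counts, 0.727, 0.683 to 0.774), and TXN, thioredoxin (2086 and 1482 counts, 0.753, 0.704 to 0.805), were lowest. Interferon-stimulated genes had a median of 0.04 over 52 genes, with RSAD2, an antiviral enzyme, highest (538 and 658 counts, 1.30, 1.15 to 1.46). Glycolysis and hypoxia genes had 20 higher and 18 lower and a median of 0.00 that changed sign with the scaling, with VEGFA, a vascular growth factor, alone past 1.2-fold (6385 and 7266 counts, 1.21, 1.17 to 1.25). TXNIP, a glucose-regulated arrestin, had 48007 and 50055 counts (1.1, 1.09 to 1.12), and MALAT1, a nuclear noncoding RNA, had 25433 and 27585 (1.15, 1.13 to 1.17).

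**Figure D3:**
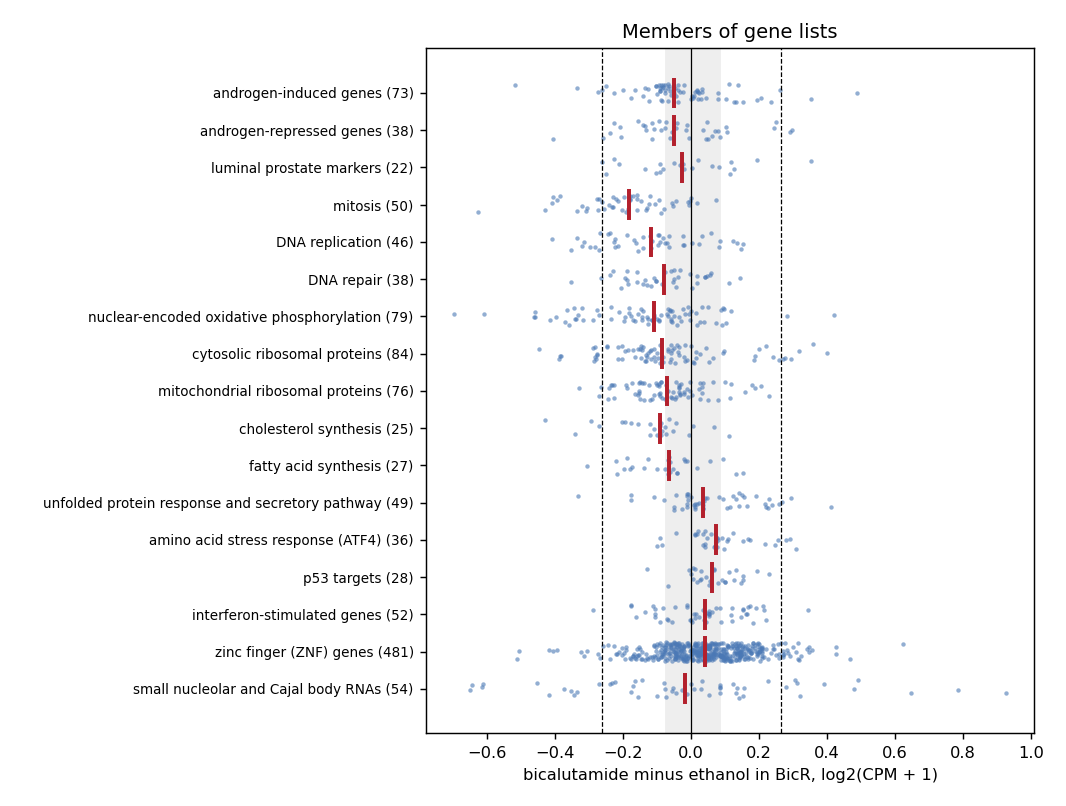
Differences between bicalutamide and ethanol in BicR on the log2(CPM + 1) scale for each tested member of 17 lists (points, number in brackets), with the median of the list as a vertical bar. The grey band is the middle 50 percent of all genes and dashed lines mark 1.2-fold; mitosis (median -0.18) lies farthest left of these lists, and small nucleolar RNAs spread most widely.

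Zinc finger genes, many of which encode transcription factors, had a median of 0.04 over 481 genes, with 319 higher and 162 lower, and the median lay between 0.021 and 0.044 over the settings tried. Past 1.2-fold 23 were higher (4.78%, all genes 2.92%) and 10 lower (2.08%, all genes 3.22%), shares near those of all genes. ZNF140 was among the 10 highest genes of all, with 4310 and 6285 counts (1.55, 1.49 to 1.61). In LNCaP it also stood higher with bicalutamide (2615 and 4244 counts), and in the DHT library of BicR it was at 139 CPM beside 82.7 with ethanol and 128 with bicalutamide. Histone genes had a median of 0.11 over 35 genes but nearly equal numbers on each side (18 higher and 17 lower), and the median was -0.016 among those with a mean of at least 100 counts. They ranged from HIST2H2BA (336 and 188 counts) to HIST1H2BC (455 and 647 counts), and their reads may be shared among near-identical copies.

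The 10 highest and 10 lowest genes with an interval that left out 1 had differences of 0.58 to 0.93 and of -0.70 to -0.61. Among the highest were 3 small nucleolar RNAs (SNORD2, SNORD100 and SNORD31), and among the lowest 3 more (SNORD47, SNORD28 and SNORD56). The rest were mixed in function. MAOB, monoamine oxidase B, had 342 and 531 counts (1.65, 1.43 to 1.89) and was also higher with bicalutamide in LNCaP (194 and 336 counts). SMPD2, a sphingomyelinase, had 1068 and 1533 counts (1.52, 1.41 to 1.65), and MYO7A, an unconventional myosin, had 7 and 37 (5.6, 2.47 to 14.9). C1orf86 was the lowest, with 6428 and 3716 counts (0.613, 0.588 to 0.638), and in the DHT library it stood at 79.0 CPM against 123 with ethanol and 75.6 with bicalutamide. KRT75, a keratin, had 162 and 80 counts (0.523, 0.395 to 0.688) and was also lower in LNCaP (315 and 192 counts). With DHT in BicR, against the same ethanol library, MAOB differed by 0.79, SMPD2 by 0.72, MYO7A by -0.05 and KRT75 by -1.62. Of the 10 highest, past 1.2-fold with bicalutamide in LNCaP 3 were higher and 2 lower, and of the 10 lowest, 3 were lower and 5 higher there. Of all tested genes 26.1% were higher and 25% lower by as much in LNCaP.

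Small nucleolar and Cajal body RNAs varied more than genes in the middle of their count range. These short RNAs guide chemical changes of ribosomal and spliceosomal RNA, and most are cut from introns of host genes. Of 387 listed, 54 were tested, with a median of -0.02 that changed sign with the filter. Past 1.2-fold 10 were higher (18.5%, all genes 2.92%) and 11 lower (20.4%, all genes 3.22%). The SD of the differences was 0.335 over all 54. It was 0.201 for the 1206 genes within the middle 50 percent of their mean counts (33.9 to 109). The medians of the absolute difference lay closer, at 0.167 and 0.134. Past 1.2-fold in either direction were 21 of the 54 small RNAs and 17.5% of the 1206 genes. SNORD2, SNORD28 and SNORD56, which were among the 10 highest or 10 lowest genes, are shown as DNA letters from GENCODE 29. The first TGAT (core of the C box) and the last CTGA (the D box) are in capitals.
SNORD2: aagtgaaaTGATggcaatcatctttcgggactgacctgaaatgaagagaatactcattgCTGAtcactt
SNORD28: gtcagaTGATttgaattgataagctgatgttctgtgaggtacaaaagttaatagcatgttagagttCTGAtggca
SNORD56: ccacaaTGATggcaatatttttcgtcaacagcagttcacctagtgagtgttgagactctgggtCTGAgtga
SNORD2 had 16 counts with ethanol and 73 with bicalutamide, beside 21 with DHT, while its host EIF4A2, a translation factor, differed by -0.09. SNORD28 had 84 and 33 counts, beside 22 with DHT. SNORD26 (261 and 316) and SNORD27 (182 and 261), which lie in the same host SNHG1, differed by 0.31 and 0.49. SNHG1 itself had 1786 and 1708 counts, a difference of 0.02. SNORD56 had 52 and 15 counts, beside 8 with DHT, and its host NOP56, a protein of these same particles, differed by -0.19. RNAs from 1 host thus lay on both sides of 0. The submitters describe the design as one of short RNA, but the sample labels give total RNA and rows carry gene symbols, so which short molecules the libraries kept is not known here. Whether reads of the hosts were counted into these loci was not tested.

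The BicR and LNCaP differences used separate libraries and did not run together across genes. Over the 13885 genes Pearson's r was -0.0884 and Spearman's rho was -0.0569, given as a description, since genes are not independent replicates and both axes carry depth and length differences of their own libraries. Of the 406 genes past 1.2-fold and higher in BicR, 77 (19%) were higher by as much in LNCaP and 151 (37.2%) were lower there. Of all tested genes 26.1% were higher and 25% lower by as much in LNCaP. The overlaps are 2.12% of the LNCaP higher list and 4.35% of the LNCaP lower list. Of the 447 lower in BicR, 107 (23.9%) were lower in LNCaP and 141 (31.5%) higher, which are 3.08% and 3.89% of the LNCaP lists. By list, oxidative phosphorylation, ribosomal proteins and cholesterol synthesis were lower in both lines. Mitosis and DNA replication were lower in BicR and higher in LNCaP, and amino acid stress genes and p53 targets were higher in BicR and lower in LNCaP (medians of -0.41 and -0.32). With 1 library in each arm the difference between the lines was not tested.

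**Figure D4:**
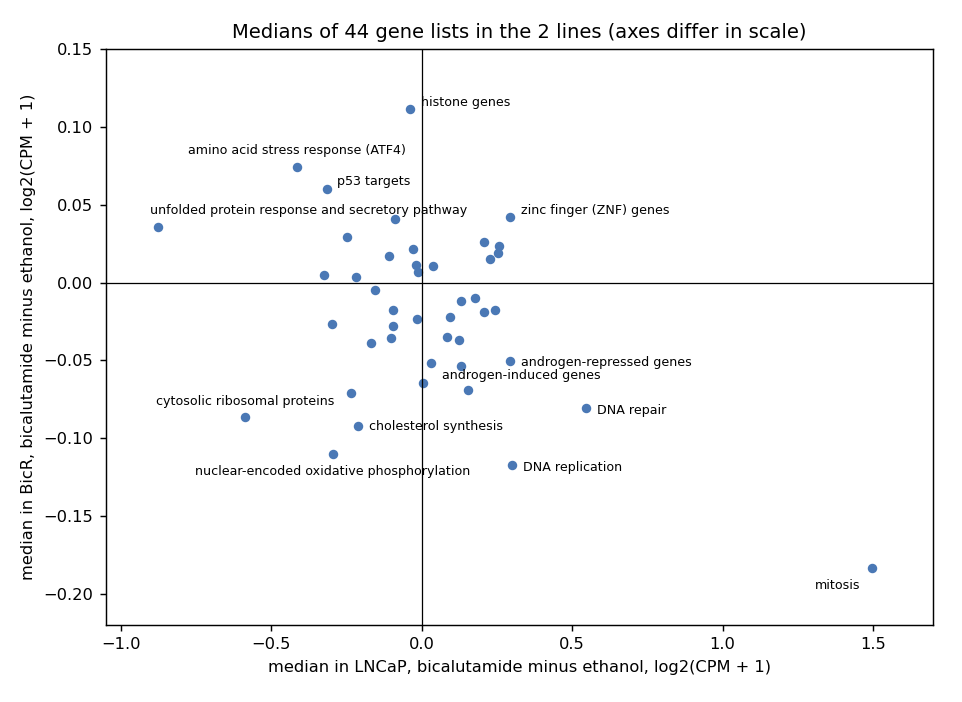
Median difference between bicalutamide and ethanol, log2(CPM + 1), of 44 gene lists with at least 10 tested members, in LNCaP (horizontal) and BicR (vertical), with axes of different scale. Mitosis lies at 1.5 in LNCaP and -0.18 in BicR, and all BicR medians lie between -0.18 and 0.11.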

How the data were processed

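RNA was sequenced from 6 libraries, 1 for each of 2 lines and 3 treatments. The authors deposited raw counts per gene symbol and, beside them, RPKM values, per the file headers, which scale counts to gene model length and depth. Per the submitters' processing notes the build was hg19. For the aligner, counting tool, annotation and use of strand, a statement is not given in the sources used here. Reads of near-identical genes, and of genes inside other genes, may therefore be shared between rows. Of 21512 rows, 2988 were at 0 in all libraries and 27 carried date-like names.

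Counts were scaled by TMM over 6 libraries (edgeR 4.0.16, R 4.3.3), and differences computed as log2(CPM + 1) for genes averaging 20 or more counts (Python 3.11.15, pandas 2.3.3, scipy 1.17.1). Ratios carry exact conditional 95% intervals. Gene lists (28 written by hand, 22 by name pattern) and comparisons were chosen with earlier results of these data known. Genes were named by rule, as the 10 highest and 10 lowest differences, the 2 highest and 2 lowest of each list, and a fixed set of androgen and stress genes. ADAMTS1, ASPM, TOP2A, PLK1, MKI67, CCNB1, STARD4, SC4MOL, MRPS28, MDM2, PCK2 and the small RNAs and host of SNHG1 were chosen after their values were seen. The scripts were tested on simulated data. Alternatives were DESeq2 1.42.0 size factors, total counts, TMM on the pair, pseudocounts, filters, folds and RPKM. Promoters are RefSeq sequences on GRCh38.p14, small RNAs come from GENCODE 29, and no coordinates were converted.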

Additional observations from a re-analysis of the deposited data

Results flagged for a closer look

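Each of these results had opposite signs in the 2 lines under the same contrast of bicalutamide and ethanol. There was 1 library in each arm, so the difference between the lines was not tested. The mitosis list had a median of -0.18 in BicR and 1.5 in LNCaP, and the DNA replication list -0.12 and 0.30. Among single genes, MYO7A differed by 0.63 in BicR and -0.64 in LNCaP, and SMPD2 by 0.58 and -0.37. LOC641746 differed by -0.65 and 0.71, SNORD28 by -0.64 and 0.69, and SNORD56 by -0.61 and 0.28. SPC25, a kinetochore gene with 3 counts in the LNCaP ethanol library, differed by -0.62 and 0.72. C11orf75, with 2898 counts or more in each of these 4 libraries, differed by -0.61 and 0.93.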

How the results depend on the processing

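The list medians for androgen-induced (-0.07 to -0.03), androgen-repressed (-0.07 to -0.03), mitosis (-0.20 to -0.15), oxidative phosphorylation (-0.13 to -0.09), ribosomal protein (-0.10 to -0.06) and unfolded protein response genes (0.02 to 0.04) kept their sign under all settings run, and all-gene medians moved by at most 0.01. The counts of genes moved: 785 higher and 830 lower with a pseudocount of 0.1, 98 and 115 with 5, 138 and 272 on RPKM, 1957 and 1865 at 1.1-fold, and 7 and 15 at 1.5-fold. Genes chosen against LNCaP bicalutamide gave -0.047 (higher with DHT) and 0.045 (lower with DHT). With a mean of at least 100 counts, the medians of neuroendocrine markers (-0.056) and histone genes (-0.016) turned sign; the cause was not tested beyond the smaller number of genes. Centring within sixths of gene length or GC content, and leaving out cycle or stress genes from the LNCaP-chosen sets, were added after seeing the data. No paired analysis was possible because each group had 1 library and the labels give no replicate numbers, and leaving out a library would empty its group. Low genes are limited by depth, and every value here rests on 1 library per treatment.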
